A study of Mus musculus with 4 samples.

Results

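The genes followed here in mouse ovary carry, store, make, bind, sense and break down retinoids: Crabp1, Crabp2, Rbp4, Aldh1a1, Aldh1a2, Stra6, Rarb, Cyp26b1 and Lrat. These 9 genes, of 32285 in the files, were found by symbol, and each symbol matched a gene. They were selected on measured values, namely a higher Crabp2 level with AMH in granulosa cells, so that pattern is given here as a description and supports nothing. The data are single-cell RNA counts from 4 libraries, 1 per treatment group. Controls were given PBS or saline. The doxorubicin group received the DNA-damaging anthracycline doxorubicin at 3 mg/kg. The doxorubicin+AMH group had the same dose of doxorubicin together with 0.75 mg/kg of AMH, the anti-Müllerian hormone that granulosa cells make, here the human protein made by recombinant means. The AMH group had 0.75 mg/kg of that protein and no doxorubicin. The mice were prepubertal, at postnatal day 25. Doxorubicin was given weekly, 2 times, and the tissue was collected 4 hours after its second dose. The strain, the route and the number of AMH doses are not given in the sources used here. Each library pooled 1 ovary from each of 5 animals.

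Vitamin A travels in blood as retinol bound to the carrier RBP4, and STRA6 takes retinol from that carrier into cells. LRAT esterifies retinol for storage. Retinol is oxidised to retinal and then, by enzymes of the ALDH1A family, to retinoic acid, the form that binds nuclear receptors such as RARβ. CRABP1 and CRABP2 bind retinoic acid inside cells, CRABP2 being known for carrying it to the nucleus, and CYP26 enzymes break it down. In the ovary, granulosa cells line the follicle and convert androgen to estrogen, theca cells around the follicle make the androgen, and retinoic acid is known as a signal for germ cells to enter meiosis.

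As each group is a single library, groups could not be tested against each other. UMIs (molecular tags that count each captured transcript once) were summed per library and cell class and are given as CPM, the UMIs of a gene per 1000000 UMIs of that sum, always listed with control first, then doxorubicin, then doxorubicin+AMH, then AMH. Intervals are 95% intervals of the counting error and say nothing of the spread between animals or preparations. The libraries held 138647495 to 178279122 UMIs in 7141 to 9478 cells, with a median of 9834.5 to 13575 UMIs per cell, and 6046 to 7976 cells were kept. Between 11 and 24 cell barcodes were shared by any 2 libraries. The cells fell into 32 clusters, 30 of which were named from marker genes into 12 classes, written with "-like". The libraries stood apart in some clusters. A pair of granulosa-like clusters of 261 cells came almost entirely from the doxorubicin library, and that library held 1 oviduct epithelial-like cell. Theca-like cells lay mostly in different clusters with and without AMH. No cluster met the rule for oocytes.

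The 9 genes divided the ovary between them. Crabp2 and Stra6 UMIs were mostly in granulosa-like cells (90.1% to 93.6% and 78.1% to 90.2% of each library's UMIs), and Aldh1a1 reached its highest level in theca-like cells. Aldh1a2 was highest in surface epithelial-like cells. Rbp4 was found in stroma-like, mural smooth muscle-like and surface epithelial-like cells, and Lrat in stroma-like cells. Rarb was highest in lymphatic endothelial-like cells. Crabp1 and Cyp26b1 were low, at no more than 8.54 CPM and 10.2 CPM in any named class. Levels are compared within a gene and not between genes.

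**Figure D1:**
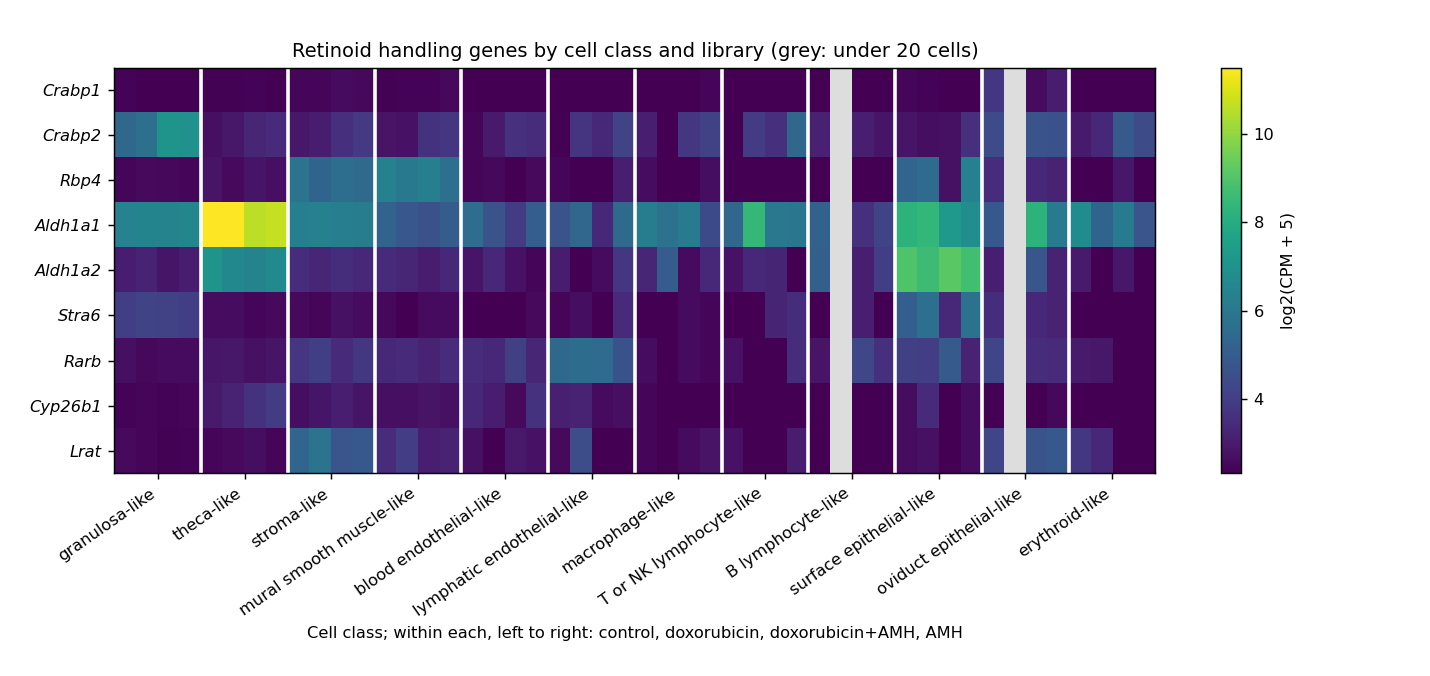
Level of each gene (rows) in 12 cell classes, as log2(CPM + 5); within each class the 4 columns are the control, doxorubicin, doxorubicin+AMH and AMH libraries, and classes with under 20 cells in a library are grey. Within its own row, Aldh1a1 is brightest in theca-like cells, Aldh1a2 in surface epithelial-like cells and Crabp2 in the granulosa-like cells of both libraries with AMH (129 and 121 CPM).

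Crabp2 lies on mm10 chr3:87948666-87953376, on the plus strand, in 4 exons. In granulosa-like cells its level was 38.3 CPM (2465 UMIs in 1951 cells), 47.5 CPM (2874 UMIs in 1891 cells), 129 CPM (7970 UMIs in 1999 cells) and 121 CPM (8920 UMIs in 2427 cells). Both libraries with AMH were high, and both without it were low. The CPM ratio was 3.17 for AMH to control (95% counting interval 3.03 to 3.31) and 2.71 for doxorubicin+AMH to doxorubicin (2.60 to 2.83). It was 1.24 for doxorubicin to control (1.17 to 1.31) and 1.06 for doxorubicin+AMH to AMH (1.03 to 1.09). These ratios describe the pattern for which the gene was chosen.

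Both libraries with AMH were above both without it in each of the 5 granulosa-like clusters with at least 50 cells in every library, named here by their leading gene. In the Cdh12 cluster Crabp2 was lowest without AMH, at 10.3 CPM and 9.09 CPM, and was 68.5 CPM and 50.2 CPM with it. There the ratio of doxorubicin+AMH to doxorubicin was 7.54 (6.11 to 9.36) and that of AMH to control 4.89 (4.05 to 5.94). In the Slc38a5 cluster, where Fshr and Fst (the FSH receptor and follistatin) are among the leading genes, Crabp2 was highest, at 77.1, 94.4, 175 and 186 CPM. The ratios there were 2.41 for AMH to control (2.22 to 2.61) and 1.85 for doxorubicin+AMH to doxorubicin (1.72 to 2.00). The dividing Ube2c cluster had 43.9, 55.6, 131 and 135 CPM, and the Shroom3 cluster 38.9, 37.4, 84.3 and 95.8 CPM. The Inhba cluster, led by a gene for an activin subunit and with Cyp19a1, the aromatase, among its leading genes, had 28.9, 66.4, 138 and 129 CPM. It was the cluster with the largest doxorubicin to control ratio of the 5, 2.29 (1.94 to 2.72). The ratio of doxorubicin+AMH to AMH in the 5 clusters ran from 0.880 in the Shroom3 cluster to 1.37 in the Cdh12 cluster.

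**Figure D2:**
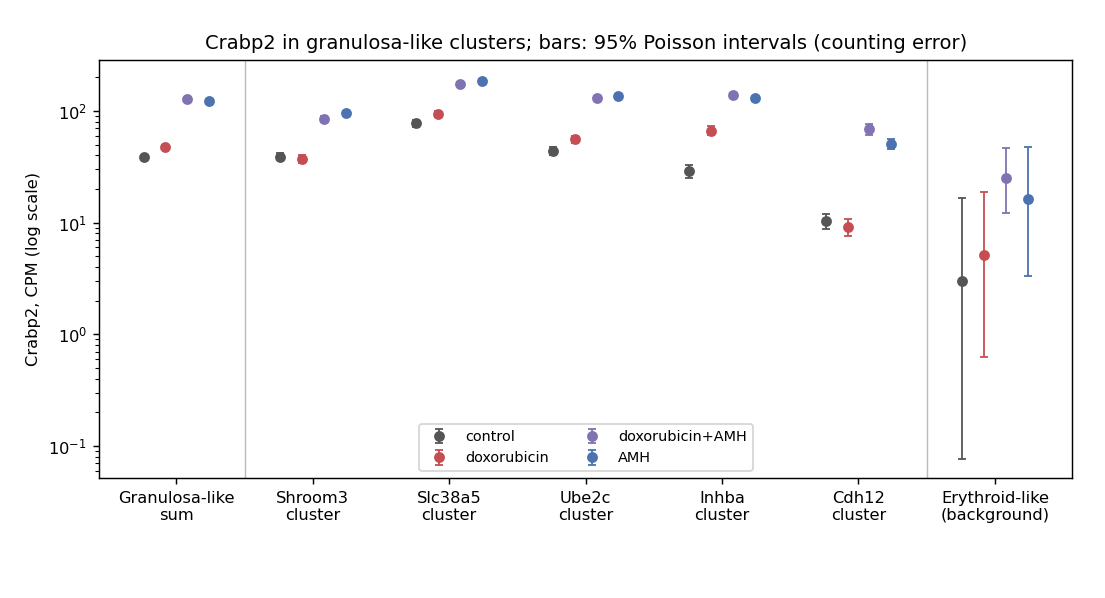
Crabp2 level in CPM (log axis) in the granulosa-like sum, in the 5 clusters with at least 50 cells in each library, and in erythroid-like cells as background; points are the 4 libraries and bars 95% Poisson intervals (counting error). In each granulosa-like cluster both libraries with AMH lie above both without it, and the Cdh12 cluster starts lowest, at 10.3 and 9.09 CPM.

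The share of granulosa-like cells with at least 1 Crabp2 UMI showed the same split. Before thinning it was 43.0%, 44.9%, 75.3% and 69.6% of cells. After every cell was thinned to 2000 UMIs the shares were 6.90% (5.81% to 8.13%, Clopper-Pearson), 9.48% (8.19% to 10.9%), 20.7% (18.9% to 22.6%) and, in AMH, 475 of 2376 cells (18.4% to 21.7%), with 24 to 51 shallower cells left out per library. The median depth of these cells before thinning was 24123, 24084, 23676 and 20220 UMIs. Erythroid-like cells, which should lack the gene, gave the background from free RNA: 1 of 59, 2 of 58, 7 of 73 and 3 of 41 cells held a UMI at median depths of 5474, 6310, 5428 and 3928 UMIs, and the level was 3.01, 5.18, 25.3 and 16.3 CPM. Thinned likewise, 0 of 46, 1 of 53, 1 of 58 and 1 of 31 of them held one. Stroma-like cells (2.59, 3.29, 6.67 and 9.22 CPM), theca-like cells and mural smooth muscle-like cells lay at or below the erythroid-like level, which rests on 1, 2, 10 and 3 UMIs, so no expression is read from them at this depth. The part of free RNA in their higher values with AMH was not tested. The Ovgp1 cluster of oviduct epithelial-like cells, secretory by its leading genes, was above the erythroid-like level at 27.5 CPM in control. Its 42.3 and 22.6 CPM in doxorubicin+AMH and AMH lay within the erythroid-like intervals, 12.1 to 46.55 CPM and 3.36 to 47.6 CPM.

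The make-up and the markers of the granulosa-like class also differed between libraries. The Slc38a5, Ube2c and Inhba clusters together made up more of the class with AMH: the Slc38a5 cluster had 398, 378, 606 and 602 of its cells, and the Cdh12 cluster 381, 321, 164 and 263. The summed level of the 8 granulosa markers was 4123, 3980, 5644 and 4721 CPM. Of these markers Inha (the inhibin alpha subunit) was 2245, 2199, 3497 and 2843 CPM, while Foxl2 (a transcription factor that keeps granulosa identity) was 90.2, 100, 62.3 and 68.5 CPM. The summed erythroid markers, a sign of free blood RNA, were 72.5, 23.2, 31.8 and 8.71 CPM. The part of these differences in the class value was not tested. The low-UMI Uchl1 cluster, left without a name, had 37.3, 77.0, 246 and 110 CPM of Crabp2 from 18, 64, 108 and 207 UMIs.

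Of the 9 genes, 2 passed the filter of a mean of 20 CPM in granulosa-like cells, Crabp2 and Aldh1a1. Ratios for calls are log2 with 5 CPM added to each level, and called means 1 log2 unit (2-fold) or more. Crabp2 was called for AMH to control (log2 ratio 1.54), where 0.439% of 6610 genes were called, and for doxorubicin+AMH to doxorubicin (1.35), where 0.605% were called. As a higher level with AMH is what chose the gene, nothing is read from either count. No member was called for doxorubicin to control or for doxorubicin+AMH to AMH, where 0.0454% and 0.0454% of genes were called. The median log2 ratio of all 6610 genes was -0.06 for AMH to control.

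Crabp1, the other retinoic acid binding protein, lies on chr9:54764748-54773110. It was carried by few cells. All deposited cells held 142, 29, 44 and 178 UMIs of it. In the unnamed Uchl1 cluster 40 UMIs came from 1 control cell and 105 UMIs from 6 AMH cells, 1 of which held 49. In the control library 36 UMIs lay in 10 of 147 oviduct epithelial-like cells, and in the AMH library 22 UMIs in 15 of 235. Granulosa-like cells held 23, 4, 6 and 8 UMIs, and 19 of the 23 in control came from 1 cell of the Cdh12 cluster. The Clec3b cluster of stroma-like cells, whose leading genes include Dpt and Col14a1 of the fibrous matrix, held 10, 9, 23 and 19 UMIs in 7, 6, 7 and 8 cells. Its level there was 2.63 CPM (1.26 to 4.84), 2.78 CPM (1.27 to 5.28), 13.2 CPM (8.37 to 19.8) and 6.26 CPM (3.77 to 9.77), with 3, 4, 9 and 11 of the UMIs in the highest cell. Both libraries with AMH were higher there, on UMIs from at most 8 cells per library.

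Rbp4 (chr19:38116629-38125281, minus strand) encodes the blood carrier of retinol. In mural smooth muscle-like cells its level was 76.4, 61.0, 73.2 and 47.7 CPM from 1021, 548, 827 and 599 UMIs. Nearly all of it was in the Acta2 cluster, a smooth muscle cluster that also expresses Myh11 and Actg2, with 111, 70.9, 82.3 and 63.7 CPM. The Des cluster, at no more than 1.59 CPM, and the pericyte-type Rgs5 cluster, at no more than 9.84 CPM, had little. The control library was highest and the AMH library lowest, and the CPM ratio of AMH to control in the Acta2 cluster was 0.577 (0.520 to 0.639). The doxorubicin to control ratio in that cluster was 0.642 (0.577 to 0.713) and that of doxorubicin+AMH to doxorubicin 1.16 (1.04 to 1.30), so doxorubicin+AMH lay between doxorubicin and control.

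In stroma-like cells Rbp4 was 50.9, 33.7, 44.6 and 40.5 CPM, lowest in doxorubicin. The Tmeff2 cluster of the stroma did not follow: its 4 values lay between 39.4 and 41.3 CPM. The Lamc3 cluster had 57.2, 34.4, 51.5 and 50.1 CPM, and the dividing Mxd3 cluster 58.5, 28.9, 63.1 and 40.6 CPM, both lowest in doxorubicin. The Clec3b cluster, at 76.3, 48.8, 59.2 and 56.0 CPM, was also lowest in doxorubicin, and the Nkain3 cluster, at 28.1, 19.3, 18.4 and 18.9 CPM, was highest in control. In surface epithelial-like cells Rbp4 split the class. The C3 cluster had 106, 98.6 and 148 CPM in control, doxorubicin and AMH, with a UMI in 62.8%, 64.1% and 67.6% of its 43, 39 and 34 cells. The Lgals7 cluster, which also expresses Lgr5, had 0 to 9.20 CPM. The doxorubicin+AMH library had only 3 cells in the C3 cluster and is not compared.

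Stra6 (chr9:58063788-58153996) encodes the cell surface receptor that takes up retinol from RBP4. Its level in granulosa-like cells was even between libraries, at 11.2, 13.4, 12.6 and 11.1 CPM from 717 to 818 UMIs. Its clusters were not. The Cdh12 cluster was highest, at 24.7, 33.0, 60.1 and 53.1 CPM, the dividing Ube2c cluster had 14.99, 17.2, 15.5 and 12.3 CPM, and the Inhba cluster 2.66 to 3.89 CPM. The Shroom3 cluster was low, at 1.21, 0.473, 3.08 and 2.86 CPM from 21, 7, 34 and 63 UMIs, with both libraries with AMH above both without it. Its ratios were 2.38 for AMH to control (1.431 to 4.102) and 6.52 for doxorubicin+AMH to doxorubicin (2.84 to 17.4). Within the Cdh12 cluster both libraries with AMH were also above both without it, with a CPM ratio of 2.15 for AMH to control (1.86 to 2.49) and 1.82 for doxorubicin+AMH to doxorubicin (1.57 to 2.12). In the Slc38a5 cluster both were below, at 8.90, 7.33, 5.503 and 5.13 CPM, with ratios of 0.576 for AMH to control (0.408 to 0.808) and 0.751 for doxorubicin+AMH to doxorubicin (0.540 to 1.04, which includes 1). As given above, the Cdh12 cluster held fewer cells with AMH and the Slc38a5 cluster more. The class sums did not show these differences. Whether the same kinds of cell lie in each cluster in each library was not tested. Stra6 was also found in the C3 cluster of surface epithelial-like cells, at 75.4, 118 and 92.1 CPM in control, doxorubicin and AMH, beside Rbp4. The Lgals7 cluster had 3.75 to 11.04 CPM. In erythroid-like cells no Stra6 UMI was found in any library.

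Neither Rbp4 nor Aldh1a1, the 2 members that passed the filter in mural smooth muscle-like cells, was called there. For AMH to control 0.243% of 6595 genes were called in that class, for doxorubicin+AMH to doxorubicin 0.273%, for doxorubicin to control 0.546% and for doxorubicin+AMH to AMH 0.470%. With cells gated one by one in place of clusters, Rbp4 was called there for doxorubicin+AMH to AMH (log2 ratio 1.40, against 0.57), and its log2 ratio for doxorubicin to control turned from -0.30 to 0.44.

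Lrat (chr3:82892579-82903973, minus strand), which stores retinol as ester, marked 1 stromal cluster. In stroma-like cells it was 35.1, 50.9, 21.5 and 23.6 CPM, from 1250, 1609, 583 and 564 UMIs. The Tmeff2 cluster, with Lum, Dcn, Cxcl12 and Angpt1 among its leading genes, held most of these UMIs: 1049, 1396, 464 and 470. There the level was 119, 197, 83.4 and 82.6 CPM, against at most 12.1 CPM in each other stroma-like cluster. Both libraries with AMH were alike and low, control lay between, and doxorubicin was high. Within this cluster the CPM ratio was 1.66 for doxorubicin to control (1.53 to 1.80) and 0.423 for doxorubicin+AMH to doxorubicin (0.380 to 0.470). It was 0.694 for AMH to control (0.621 to 0.774) and 1.01 for doxorubicin+AMH to AMH (0.885 to 1.15). The share of the cluster's cells with an Lrat UMI was 38.9%, 52.2%, 30.9% and 29.8% of 1202, 778, 737 and 829 cells, and no cell held more than 20 UMIs.

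**Figure D3:**
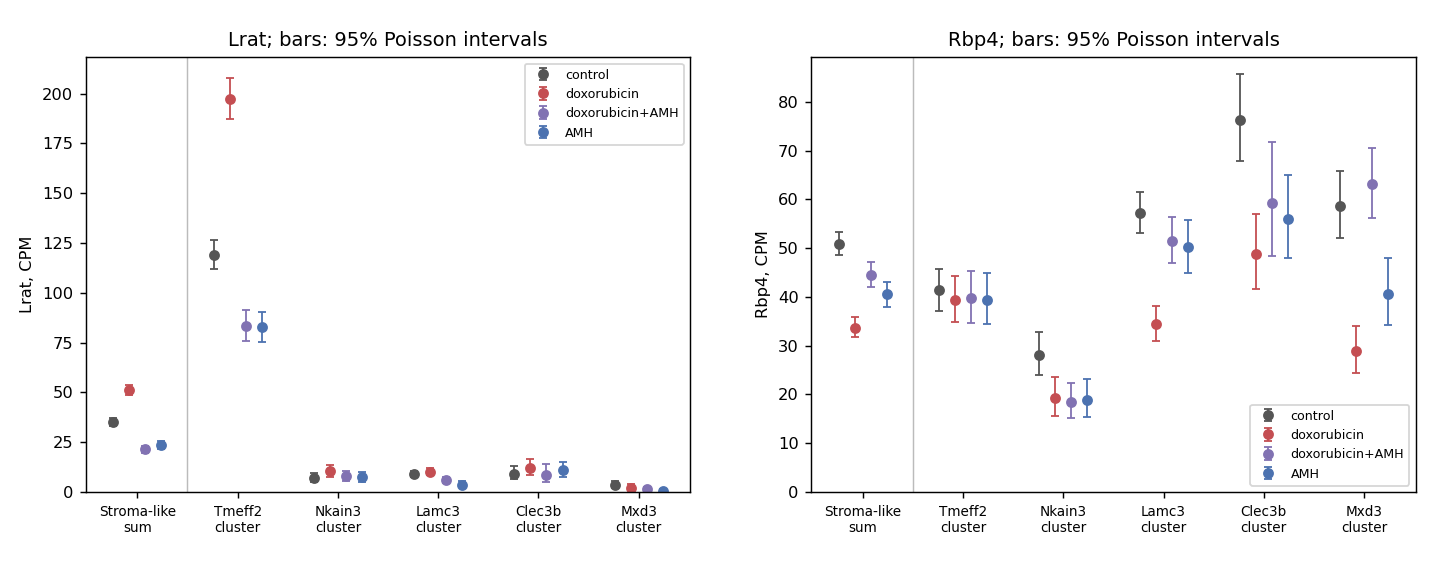
Lrat (left) and Rbp4 (right) levels in CPM in the stroma-like sum and its 5 clusters; points are the 4 libraries and bars 95% Poisson intervals (counting error). Lrat is confined largely to the Tmeff2 cluster, where doxorubicin is highest at 197 CPM, while Rbp4 lies in all 5 clusters and is lowest in doxorubicin in the Lamc3, Mxd3 and Clec3b clusters.

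Rbp4, Aldh1a1 and Lrat passed the filter in stroma-like cells. Lrat was called for doxorubicin+AMH to doxorubicin (log2 ratio -1.08), where 0.195% of 6673 genes were called, and where all 13 called genes were lower with AMH. No member was called for AMH to control (0.150% of genes called), for doxorubicin to control (0.120%) or for doxorubicin+AMH to AMH (0.0899%). The Lrat call rests on the edge of the threshold: it was -0.81 with each library clustered alone and -0.96 with shared clusters weighted equally. Beside it, the summed stroma markers were 7656, 7350, 6112 and 7364 CPM, and the summed mural smooth muscle markers in the same cells were 721, 679, 1080 and 985 CPM, higher in both libraries with AMH. Their part in the result was not tested. Outside the stroma, Lrat was 13.99, 20.3 and 23.6 CPM in the oviduct epithelial-like cells of control, doxorubicin+AMH and AMH.

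Aldh1a1 (chr19:20492715-20643465, plus strand) encodes a retinal dehydrogenase that makes retinoic acid. In theca-like cells it was 2905, 2883, 1534 and 1655 CPM, from 24170 to 74011 UMIs. Both libraries with AMH were low. The CPM ratio was 0.570 for AMH to control (0.562 to 0.578), 0.532 for doxorubicin+AMH to doxorubicin (0.524 to 0.540) and 0.992 for doxorubicin to control (0.981 to 1.00). Short of 2-fold, neither AMH contrast was called.

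Different clusters made up the theca-like class with and without AMH. The Cyp17a1 cluster, led by the enzymes Cyp17a1 and Cyp11a1 of androgen synthesis, held 82.1% of theca-like cells in control and 75.5% in doxorubicin, but 7.71% in doxorubicin+AMH and 4.04% in AMH. The Prss35 cluster, with Star and Vcam1 among its leading genes, held 4.71%, 6.09%, 77.7% and 84.0%. The Sct cluster, with Lhcgr, the LH receptor, among its leading genes, held 106 to 109 cells in every library. In every library Aldh1a1 was highest in the Cyp17a1 cluster: it was 3163, 3200, 2466 and 2783 CPM there, and 1047, 727, 1546 and 1659 CPM in the Prss35 cluster. In the Sct cluster the values were 1146, 1100, 1127 and 1178 CPM, with ratios of 1.03 for AMH to control (0.980 to 1.08) and 1.02 for doxorubicin+AMH to doxorubicin (0.974 to 1.08). Within no theca-like cluster was the AMH to control ratio as low as in the class sum. In the Prss35 cluster it was above 1, at 1.58 (1.44 to 1.75), from 39 control cells. The summed theca markers were 10784, 10339, 3313 and 2987 CPM, Cyp17a1 itself 1913, 1810, 316 and 141 CPM, and the summed stroma markers in theca-like cells 794, 819, 1556 and 1627 CPM. The retinoid genes were kept out of the clustering, and the steroid enzymes were not. As the clusters were drawn from these same counts, cells that changed state and cells of a kind that became fewer cannot be told apart.

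**Figure D4:**
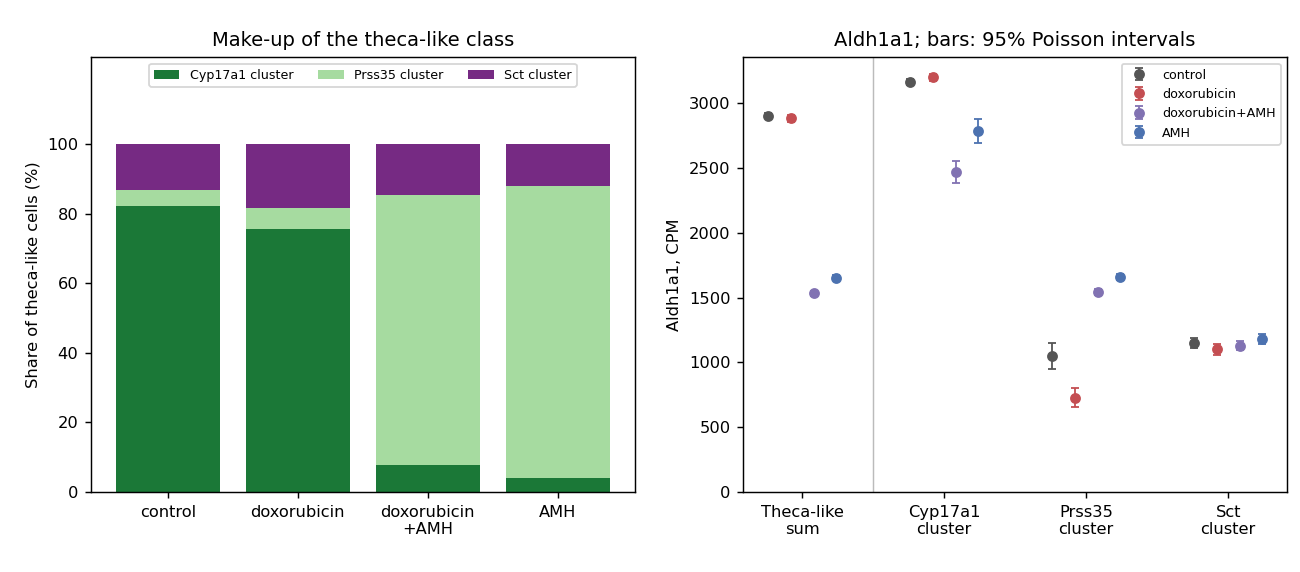
Left, share of theca-like cells in its 3 clusters for each library, in percent; right, Aldh1a1 level in CPM in the theca-like sum and each cluster, with 95% Poisson intervals (counting error). Most of the class lies in the Cyp17a1 cluster without AMH (82.1% of control cells) and in the Prss35 cluster with it (84.0% of AMH cells), while Aldh1a1 in the Sct cluster lies between 1100 and 1178 CPM in all 4 libraries.

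Outside the theca, Aldh1a1 was 78.6, 83.9, 81.3 and 87.8 CPM in granulosa-like cells, and 105, 33.7, 63.3 and 21.7 CPM in erythroid-like cells from 35, 13, 25 and 4 UMIs. In CPM the granulosa-like sum was below the erythroid-like level in control and above it in the other libraries. Erythroid-like cells were shallower, with a median of 5474 UMIs in control against 24123 in granulosa-like cells. The same free RNA weighs more in a shallow cell, so levels in CPM cannot say how much of the Aldh1a1 here is free RNA. The granulosa-like clusters were not alike. The Inhba cluster had 129, 111, 193 and 176 CPM and the Cdh12 cluster 78.1, 82.9, 27.3 and 48.0 CPM, so both libraries with AMH were higher in the one and lower in the other. In the same clusters the theca transcript Cyp17a1 was 12.3, 10.7, 1.08 and 3.73 CPM (Inhba) and 4.89, 9.24, 1.41 and 2.24 CPM (Cdh12). The Cdh12 cluster was below the erythroid-like level in control and doxorubicin+AMH, so no ratio is given for it. In surface epithelial-like cells Aldh1a1 was 302, 335, 152 and 107 CPM, and in their Lgals7 cluster 375, 477, 158 and 156 CPM, so both libraries with AMH were low there too. In this class the C3 cluster made up 39.8%, 41.5%, 7.69% and 51.5% of cells, and the summed surface epithelial markers were 5369, 4529, 4439 and 3666 CPM. Its summed stroma markers were 2095, 2647, 1605 and 4436 CPM, and its summed erythroid markers 13.1, 19.9, 10409 and 9.27 CPM. The part of these in the Aldh1a1 values was not tested. In blood endothelial-like cells it was 43.3, 20.2, 10.02 and 28.5 CPM from 160, 56, 11 and 64 UMIs, and in macrophage-like cells 66.7, 49.7, 61.5 and 15.96 CPM from 111, 37, 63 and 25 UMIs. Macrophage-like cells lay below the erythroid-like level in every library but doxorubicin, and blood endothelial-like cells in every library but AMH. It was the only member to pass the filter in either class, and was called for doxorubicin+AMH to AMH in the first (log2 ratio -1.16), and for AMH to control (-1.77) and doxorubicin+AMH to AMH (1.67) in the second. Of 6893 genes in blood endothelial-like cells, 0.928% were called for AMH to control, 0.899% for doxorubicin+AMH to doxorubicin, 0.218% for doxorubicin to control and 1.00% for doxorubicin+AMH to AMH. In macrophage-like cells 1.03%, 3.54%, 3.09% and 1.79% of 6303 genes were called for these contrasts. The 6 summed theca markers stood in the same order over the libraries as Aldh1a1 in both classes, at 139.5, 80.1, 32.8 and 100.7 CPM in blood endothelial-like cells and 299.7, 117, 259.8 and 53.0 CPM in macrophage-like cells. The endothelial class also held 16.5, 1326, 6243 and 408.0 CPM of summed erythroid markers, and its summed macrophage markers were at 256.6 CPM in AMH, against 29.1 to 35.4 CPM in the other libraries. The part of these lists in the calls was not tested. With the doublets left in, neither of the calls for doxorubicin+AMH to AMH was made, and with cells gated singly that for AMH to control was not. The dividing Mxd3 cluster of the stroma had 92.8, 184, 167 and 158 CPM, beside 14.9, 42.4, 65.3 and 12.5 CPM of Cyp17a1. Of the 60-base words in Aldh1a1 transcripts, 2.11% also occur in its near copy Aldh1a7, so a small part of its reads may not be told apart from that gene. None of the other 8 genes shared such a word with another gene.

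Aldh1a2 (chr9:71215789-71296243) encodes the retinal dehydrogenase best known from the embryo, where it marks mesothelium. It was highest in surface epithelial-like cells, at 493, 386, 566 and 417 CPM from 108, 94, 39 and 66 cells. Both clusters of that class held it: the Lgals7 cluster had 581, 502, 608 and 558 CPM, with a UMI in 93.8%, 89.1%, 83.3% and 84.4% of cells, and the C3 cluster 254, 183 and 282 CPM in control, doxorubicin and AMH. Within the Lgals7 cluster the libraries differed less than the 2 clusters did. In theca-like cells Aldh1a2 was 131, 91.7, 81.1 and 99.0 CPM. By cluster it followed the same cells as Aldh1a1 only in part: the Cyp17a1 cluster had 145, 104, 54.6 and 73.7 CPM and the Prss35 cluster 15.2, 29.1, 102 and 118 CPM, while the Sct cluster had 34.9, 18.0, 24.3 and 28.0 CPM. In the libraries with AMH, most of its theca-like UMIs were therefore in the Prss35 cluster, 1121 of 1278 and 1567 of 1748. Among granulosa-like clusters only the Cdh12 cluster, at 8.51, 11.1, 11.7 and 15.5 CPM, was above 5 CPM in every library.

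Aldh1a1 and Aldh1a2 were the members that passed the filter in theca-like cells, and neither was called. The background there was high with AMH: 5.21% of 6260 genes were called for AMH to control and 5.11% for doxorubicin+AMH to doxorubicin. It was 0.112% for doxorubicin to control and 0.0799% for doxorubicin+AMH to AMH. Weighting each cell equally, in place of summing UMIs, put the Aldh1a1 log2 ratio at -1.01 for AMH to control and -1.03 for doxorubicin+AMH to doxorubicin, past the threshold. Clustering each library alone gave -1.20 and -1.03, and the Sct cluster alone gave 0.04 and 0.03.

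Cyp26b1 (chr6:84571414-84593908, minus strand) encodes an enzyme that breaks down retinoic acid, known for shielding germ cells of the fetal testis. In the Sct cluster of theca-like cells it was 14.5, 24.8, 33.1 and 27.7 CPM from 41, 55, 113 and 86 of the 199, 220, 256 and 315 UMIs in kept cells. Stroma-like cells, a far larger class, held 49, 69, 96 and 53. The share of cells with a UMI there was 7.34%, 11.3% (5.99% to 18.9%), 22.2% (14.8% to 31.2%) and 20.8% (13.5% to 29.7%) of 109, 106, 108 and 106 cells. The CPM ratio was 1.91 for AMH to control (1.31 to 2.85) and 1.33 for doxorubicin+AMH to doxorubicin (0.959 to 1.88), so the second interval included 1. A few cells carried many of these UMIs, up to 22 in 1 cell. Without the highest cell of each library the Sct cluster had 7.83, 15.1, 28.4 and 21.2 CPM. The Cyp17a1 cluster of the AMH library was higher, at 64.3 CPM, with 75 of its 82 UMIs from 1 cell. Granulosa-like cells had 0.258 to 0.449 CPM.

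Rarb encodes the retinoic acid receptor β, which binds DNA with RXR partners and is itself a textbook target of retinoic acid through a response element in its promoter. The gene lies on chr14:16430839-16819156, on the minus strand, in 11 exons. Its promoter is shown because that element can be read from it, as can one before Cyp26a1, a related enzyme found in oviduct epithelial-like cells. The sequences are from RefSeq on build GRCm38.p6, which matched 8 of the 9 genes, all but Crabp2. Each is the 250 bases before an annotated start, 5′ to 3′ on the gene's strand, Rarb from chr14:16575477-16575726 and Cyp26a1 from chr19:37697558-37697807. Capitals mark a match to DR5, a direct repeat of the nuclear receptor half-site with 5 bases between.
Rarb: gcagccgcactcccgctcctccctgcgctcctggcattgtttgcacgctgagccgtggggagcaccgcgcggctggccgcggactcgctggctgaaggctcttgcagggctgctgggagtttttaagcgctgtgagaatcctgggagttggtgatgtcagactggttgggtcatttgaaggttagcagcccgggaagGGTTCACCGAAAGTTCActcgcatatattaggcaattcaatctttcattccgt
Cyp26a1: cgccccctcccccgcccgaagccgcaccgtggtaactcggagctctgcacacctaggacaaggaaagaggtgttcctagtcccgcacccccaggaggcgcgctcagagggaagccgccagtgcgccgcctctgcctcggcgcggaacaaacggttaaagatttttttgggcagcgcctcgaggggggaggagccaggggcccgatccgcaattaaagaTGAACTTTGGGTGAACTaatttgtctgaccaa
The Rarb match ends 36 bases before the start and lies on the gene's strand, and the Cyp26a1 match ends 15 bases before its start and lies on the opposite strand. DR5 was searched on both strands in 32851 promoter windows of this length and was found in 29 of them, 0.0883%. Crabp2 had no window to search. Of the other 7 members with one, none held DR5, and of all 8 none held DR2 or DR1, the repeats with 2 and 1 bases between, which were found in 0.174% and 0.164% of windows. A match is a description of letters and not evidence of binding.

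Rarb was low in granulosa-like and theca-like cells, so its levels there are not set against those of Crabp2 or of the enzymes. In granulosa-like cells Rarb was 1.46, 0.694, 0.984 and 1.02 CPM from 94, 42, 61 and 75 UMIs. Both libraries with AMH lay between the other two. Erythroid-like cells had 3.01 and 2.59 CPM of it in control and doxorubicin and no UMI with AMH. In theca-like cells Rarb was 2.34, 2.67, 2.21 and 1.57 CPM in the Cyp17a1 cluster, from 52, 44, 3 and 2 UMIs. It was 5.08, 1.71, 1.55 and 1.96 CPM in the Prss35 cluster, from 2, 1, 17 and 26 UMIs. In the Sct cluster it was 2.47, 1.35, 2.05 and 3.54 CPM, from 7, 3, 7 and 11 UMIs. In lymphatic endothelial-like cells it was 36.9, 42.3, 41.4 and 19.9 CPM from 89, 31, 38 and 28 UMIs in 40 to 78 cells. In stroma-like cells it was 8.66, 11.2, 5.97 and 8.93 CPM, highest in the Clec3b cluster at 25.8, 45.7, 19.0 and 27.0 CPM, with doxorubicin above the other libraries. The Rgs5 cluster had 18.0, 24.6, 22.3 and 13.5 CPM. Rarb overlaps Top2b on the opposite strand, and Stra6 overlaps Ccdc33 likewise. Whether the counts used strand is not given in the sources used here.

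A list of 50 genes of the retinoid pathway, drawn up with earlier results of these data known, holds the 9 members, and 49 of its genes were in the files. In granulosa-like cells 9 of them passed the filter. Crabp2, chosen for its higher level with AMH, was the 1 called in each AMH contrast, beside 0.439% and 0.605% of all genes. The median log2 ratio of those 9 was 0.13 for AMH to control and 0.03 for doxorubicin+AMH to doxorubicin, beside -0.06 and -0.04 over all genes tested. Fabp5, the fatty acid binding protein that can also carry retinoic acid, was 296, 299, 420 and 341 CPM there. In theca-like cells 12 passed, with medians of -0.39 and -0.39 beside -0.07 and -0.04 over all genes, and 1 of them was called in each AMH contrast, beside 5.21% and 5.11% of all genes. Fabp5 was called there for AMH to control (261, 244, 124 and 101.2 CPM), and Adh1, an alcohol dehydrogenase that can oxidise retinol, for doxorubicin+AMH to doxorubicin (48.8, 72.8, 24.2 and 39.0 CPM). In the Sct cluster Fabp5 was 170, 252, 251 and 180 CPM, with ratios of 1.06 for AMH to control (0.938 to 1.20) and 0.993 for doxorubicin+AMH to doxorubicin (0.892 to 1.11), both intervals including 1 as for Aldh1a1. With the Sct cluster alone, the one cluster well filled in every library, the log2 ratios behind these calls turned from -1.33 to 0.08 for Fabp5 and from -1.41 to 0.71 for Adh1. In stroma-like cells 17 passed and 1, Lrat, was called, for doxorubicin+AMH to doxorubicin, where 0.195% of all genes were. In mural smooth muscle-like cells 15 passed and none was called, beside 0.243% to 0.546% of all genes over the 4 contrasts.

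A few low genes of the list stood out and were chosen after their values were seen. Dhrs3 encodes a retinal reductase, returns retinal to retinol and is known as a gene that retinoic acid induces. It was below the filter in granulosa-like cells, at 18.2, 18.0, 4.03 and 5.04 CPM from 1173, 1092, 250 and 370 UMIs, so both libraries with AMH were low. Its CPM ratio was 0.276 for AMH to control (0.245 to 0.311) and 0.224 for doxorubicin+AMH to doxorubicin (0.194 to 0.257). Erythroid-like cells had 0, 7.77, 5.06 and 0 CPM of it, from 0, 3, 2 and 0 UMIs. The granulosa-like level in doxorubicin+AMH thus lay below theirs, and the part of free RNA was not tested. Dhrs3 was lower with AMH in all 5 granulosa-like clusters, from 29.8 to 8.96 CPM (control to AMH) in the Cdh12 cluster and from 18.3 to 3.04 CPM in the Slc38a5 cluster, the cluster where Crabp2 was highest. In theca-like cells Dhrs3 was 91.6, 90.3, 50.2 and 52.1 CPM, lower in both libraries with AMH. As given above, different clusters make up that class with and without AMH, and their part in these values was not tested. Stroma-like cells had 43.1, 52.9, 42.0 and 37.3 CPM of Dhrs3. Cyp26a1 was seen almost only in oviduct epithelial-like cells, at 49.6 CPM in control (209 UMIs in 147 cells) and 44.6 CPM in AMH (291 UMIs in 235 cells), with 1 UMI in the 47 such cells of doxorubicin+AMH. Those 47 cells stood apart: in control, doxorubicin+AMH and AMH the summed oviduct epithelial markers of the class were 9620, 2924 and 7488 CPM, the stroma markers 382, 1602 and 499.7 CPM and the theca markers 63.3, 508 and 152 CPM. Their part in the Cyp26a1 values was not tested. Granulosa-like cells held 2, 1, 0 and 1 UMIs of Cyp26a1.

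The genes whose levels ran most like each member were found over 48 sums of class and library, as Pearson's r of log2(CPM + 5) among 12706 genes. These r are descriptions, since the sums share libraries and depth, and 1 sum is of 1 cell. For Crabp2 they were Fst (follistatin, r = 0.886), Derl3 (0.882) and Kazald1 (0.858). Over the 46 sums of at least 20 cells, Inhbb, the inhibin beta B subunit, came first (0.907), before Fst and Derl3. For Aldh1a1 they were Folr1 (0.918), Me1 (0.916) and the prolactin receptor Prlr (0.901). Rbp4 ran with Ly6h (0.919), Fmod (0.917) and Islr (0.913), and Aldh1a2 with Gata1 (0.920), Nkain4 (0.910) and Syne4 (0.891). Lrat ran with Penk (0.822), Col26a1 (0.799) and Lpar1 (0.793), Stra6 with Gm21814 (0.880), Kcnb2 (0.820) and Esyt3 (0.818), and Rarb with Plce1 (0.860), Tnfaip8l3 (0.810) and Rassf9 (0.797). Over the 46 sums, Fdx1 came first for Aldh1a1 (0.923) and Prlr was no longer among the first 3, Ifitm1 came second for Lrat (0.808), Grip1 (0.833) and Plekha7 (0.824) followed Gm21814 for Stra6, and Bcr (0.797) joined the first 3 for Rarb. Crabp1 and Cyp26b1, below 20 CPM in each class and library, were left out.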

How the data were processed

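Per the file headers, the deposited files were written by Cell Ranger 7.0.0 and hold UMI counts for each gene in each barcode, with no normalization. The submitters' processing notes name mm10, R 4.2.0 and Seurat 4.1.0. The annotation and the counting of intronic reads are not given in the sources used here. Gene positions are from a GENCODE annotation of the same build, by gene ID.

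Barcodes under 1000 UMIs or over 20% mitochondrial UMIs were dropped. Then 408 to 719 doublets per library were removed by Scrublet score, at 0.8% of cells per 1000 cells (scanpy 1.11.5), since the automatic threshold marked 0 to 292. The 4 libraries were clustered jointly on 2000 variable genes, the 49 retinoid genes and the mitochondrial genes left out (30 components, 20 neighbours, Leiden resolution 1.0). A cluster was named when at least 3 markers and 50% of a list were high. The members, the pathway list and the marker lists were chosen with earlier results of these data known, and the naming thresholds and 3 added alternatives were set after these data were seen. Clusters under 33.3% of their libraries' median depth with no such marker among their 10 leading genes stayed unnamed.

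Class sums were compared as log2 ratios after adding 5 CPM, for genes whose mean was 20 CPM or more. Intervals are exact: Poisson for sums, Clopper-Pearson for shares and conditional binomial for ratios. Named genes are the 9 members, pathway genes past 2-fold in 1 of the 4 classes whose pathway genes were counted, and the 3 genes most like each member by r. Dhrs3 and Cyp26a1 fall outside this rule and were chosen after their values were seen. The calculations were tested on simulated data. With 1 library in each group, p-values were not computed.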

Additional observations from a re-analysis of the deposited data

How the results depend on the processing

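No paired analysis was possible because each group has 1 library, and for the same reason no library could be left out. No called log2 ratio of a member changed sign. With shared clusters weighted equally, which leaves the Sct cluster of the theca-like class, that of Fabp5 for AMH to control was 0.083 and that of Adh1 for doxorubicin+AMH to doxorubicin 0.71. Crabp2 in granulosa-like cells stayed past 2-fold in both AMH contrasts under all 11 alternatives. For AMH to control its log2 ratio was 1.66 with median-of-ratios scaling, 1.44 with cells weighted equally, 1.47 with shared clusters weighted equally and 1.64 with a pseudocount of 1 CPM. For doxorubicin+AMH to doxorubicin it was 1.44 with median-of-ratios scaling, 1.11 with shared clusters weighted equally and 1.42 with a pseudocount of 1 CPM. Doxorubicin to control was 0.20 with cells and 0.36 with clusters weighted equally, and doxorubicin+AMH to AMH was 0.0015 with clusters weighted equally. Median-of-ratios scaling put the all-gene median of granulosa-like cells for AMH to control at 0.05 in place of -0.06. Thinned to 5000 UMIs, the shares of granulosa-like cells with a Crabp2 UMI were 16.0%, 17.8%, 42.7% and 40.1%.

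In granulosa-like, theca-like, stroma-like and mural smooth muscle-like cells, counts of members past 2-fold moved by at most 1. In theca-like cells they were 1 in place of 0 in both AMH contrasts with cells weighted equally or libraries clustered alone, by Aldh1a1. In stroma-like cells they were 1 in place of 0 for AMH to control with cells gated singly (Aldh1a1), and 0 in place of 1 for doxorubicin+AMH to doxorubicin with clusters weighted equally or libraries clustered alone (Lrat). In mural smooth muscle-like cells they were 1 in place of 0 for doxorubicin+AMH to doxorubicin with libraries clustered alone (Aldh1a1) and for doxorubicin+AMH to AMH with cells gated singly (Rbp4). In blood endothelial-like cells they were 1 in place of 0 for AMH to control with no filter, for doxorubicin+AMH to doxorubicin with a minimum of 500 UMIs, doublets left in or cells gated singly, and for doxorubicin to control with a mitochondrial limit of 10% or a pseudocount of 1 CPM. For doxorubicin+AMH to AMH they were 0 in place of 1 with doublets left in or cells weighted equally, and 2 with no filter. In macrophage-like cells they were 0 in place of 1 for AMH to control with cells gated singly and for doxorubicin+AMH to AMH with doublets left in. For doxorubicin+AMH to doxorubicin there they were 1 in place of 0 with cells gated singly and 2 with no filter, and for doxorubicin to control 1 with doublets left in or no filter. The share of all genes called under each alternative setting does not stand beside these counts of members, so nothing is read from them.

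Counts of pathway genes past 2-fold moved more. In granulosa-like cells both AMH contrasts had 2 with no filter. In theca-like cells both had 3 with cells weighted equally (of 14, beside 6.51% and 5.53% of all genes called) or libraries clustered alone (of 13, beside 7.54% and 6.21%), 2 with a pseudocount of 1 CPM (of 12, beside 6.36% and 6.05%) and 0 with clusters weighted equally (of 14, beside 0.720% and 1.28%). A mitochondrial limit of 10% gave 2 for AMH to control and 0 for doxorubicin+AMH to doxorubicin, no filter gave 2 for the first, and a minimum of 500 UMIs gave 2 for the second. In stroma-like cells the doublets left in gave 2 for doxorubicin+AMH to doxorubicin, and clusters weighted equally or libraries clustered alone gave 0. Single changes to 1 came from gated cells (stroma-like AMH to control, mural doxorubicin to control and doxorubicin+AMH to AMH), from libraries clustered alone (both doxorubicin+AMH contrasts in mural and that to AMH in stroma-like cells) and from doublets left in or no filter (stroma-like doxorubicin+AMH to AMH). The causes were not tested. Where no share of all genes called under the same setting stands beside a count here, nothing is read from that count.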
